A study of Mus musculus with 40 samples.

Results

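The genes described here are 10 parts of the hypoxia-inducible factor (HIF) pathway, taken by gene symbol from the 55401 genes of the deposited table. They are the factor subunits Hif1a and Epas1, the prolyl hydroxylases Egln1, Egln2 and Egln3, the ubiquitin ligase component Vhl, and the target genes Epo, Adm, Ankrd37 and Ndrg1. All 10 were found, and 9 had enough counts for a model-based test over all libraries, the exception being Epo.

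The study asked whether the mitochondria-targeted compound MitoGamide protects the diabetic kidney, and RNA from the renal cortex was sequenced in 40 male C57BL/6J mice. Akita mice were heterozygous for the Ins2-Akita allele, a dominant mutation of an insulin gene that makes the animals diabetic, and WT mice were their littermates without it. Within each genotype there were 4 groups of 5 mice, and the first pair of groups received the ethanol vehicle (10% ethanol in water) or MitoGamide at 10 mg/kg in it, by gavage each day. The second pair received water or, in water, MitoQ, another mitochondria-targeted compound. The labels of all 40 libraries give treatment from 6 to 22 weeks of age, in a text that names only the ethanol vehicle and MitoGamide, and the dose of MitoQ and the route of the second pair are not given in the sources used here. The Akita allele is a point mutation of a gene of the pancreatic beta cell, so that the genotype labels could not be checked from kidney counts. Each library came from 1 animal.

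Oxygen controls the HIF proteins after translation. When oxygen is present, the EGLN enzymes hydroxylate HIF-1α (Hif1a) and HIF-2α (Epas1), and the VHL protein then marks both for destruction. When oxygen falls, the subunits persist, pair with ARNT and switch on genes for glycolysis, vessel growth and red cell production. In the kidney, HIF-1α is known mainly from tubule cells and HIF-2α from endothelial and interstitial cells, and it is certain interstitial cells that make erythropoietin. Because the proteins are set by degradation, transcript levels of Hif1a and Epas1 are not a measure of HIF activity, and only transcripts were measured here.

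Total estimated counts ranged from 9106654 to 24321424 per library. In 8 libraries, all of the water arm (3 of Akita and 3 of WT mice on water and 1 of each genotype on MitoQ), the 20 most abundant genes held over 45% of the counts, and up to 75.1%. The first principal component of log2 CPM held 40.01% of the variance, with its sign set so that it rises with this share. The 8 libraries had scores between 34.62 and 99.41. Some other libraries of the water arm had positive scores too, up to 52.25. Every library on ethanol or MitoGamide had a negative score. As a check of the tissue, 8 proximal tubule genes summed to between 9376 and 18080 CPM, whereas 4 genes of the inner medulla and urothelium summed to between 0.0924 and 28.9 CPM. Whether both arms were processed together is not given in the sources used here, so that vehicle and any batch of the arms cannot be told apart.

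Levels are given as CPM, which is the count relative to the library total after TMM scaling over all 40 libraries. Per kilobase of the longest annotated transcript, the level was highest for Ndrg1 (441 CPM per kb), followed by Epas1 (34.2), Egln2 (14.4), Hif1a (12.5) and Egln1 (12.0). Vhl, Adm and Egln3 followed at 3.997, 3.70 and 2.93 CPM per kb, and Ankrd37 and Epo were lowest at 0.883 and 0.268. On this scale the HIF-2α transcript was above that of HIF-1α, and Egln3 was the lowest of the 3 hydroxylases. Within groups, the coefficient of variation was between 11.4% and 14.8% for Epas1, Egln1, Egln2, Hif1a and Vhl, between 23.9% and 24.7% for Adm, Egln3 and Ndrg1, and 45.04% for Ankrd37, which had a mean of only 12.9 counts per library.

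Akita kidneys had more transcript of 4 of the 10 genes than WT kidneys over all 4 treatments. These were Hif1a itself and the targets Egln3, Adm and Ankrd37, with log2 fold changes of 0.32, 0.70, 0.78 and 0.87. Epas1, Egln1, Egln2, Vhl and Ndrg1 did not pass the test, and Epo was too sparse for it. In numbers, 4 of 9 tested members were called higher in Akita mice and 0 lower (edgeR quasi-likelihood test with treatment as a term, Benjamini-Hochberg adjusted p under 0.05), where 22.8% of all 17769 tested genes were called in either direction and 11% were called higher. In the plot of changes by treatment the estimates of the 4 genes lie above 0 in each treatment, and that of Ankrd37 with MitoQ (0.25) turned to -0.20 without replicate 4 of the Akita mice. Among single treatments, members were called on ethanol and on MitoGamide.

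**Figure D1:**
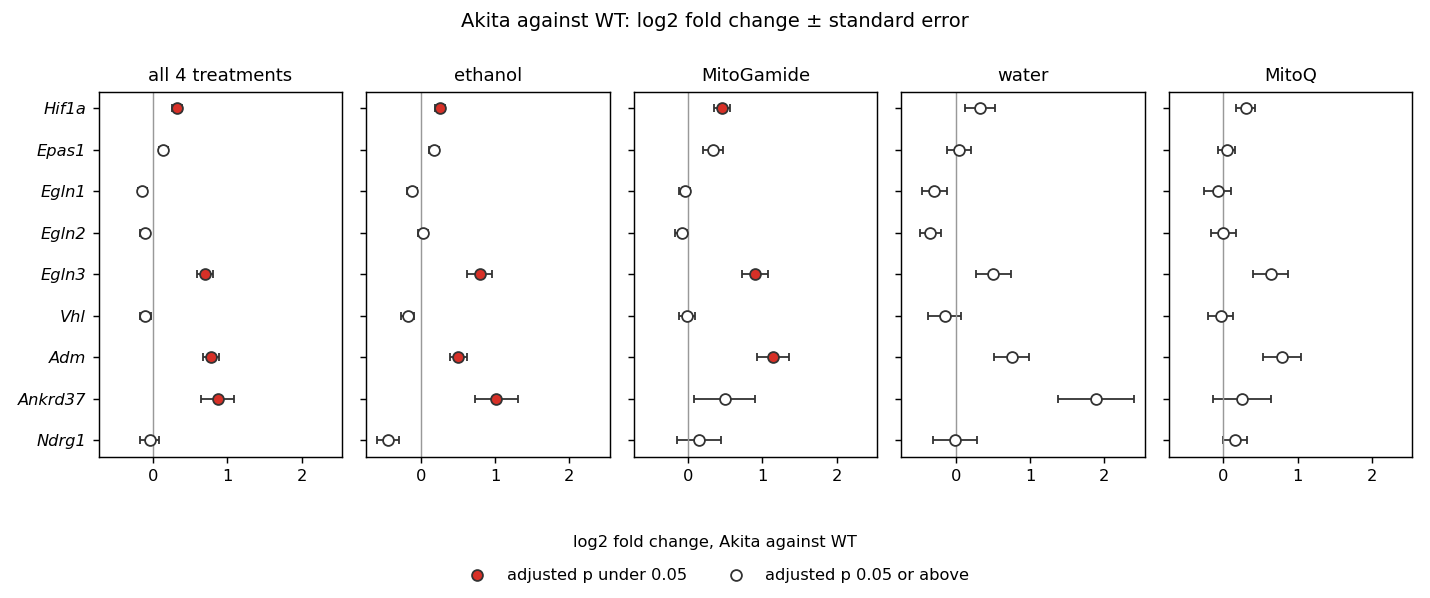
Log2 fold change of Akita against WT mice (x axis) with its standard error (bars) for 9 genes, over all 4 treatments and on each treatment alone, with filled points for an adjusted p under 0.05 from edgeR. Hif1a, Egln3 and Adm lie to the right of 0 in every panel, with estimates of 0.26 to 0.46, 0.50 to 0.90 and 0.51 to 1.14 in the single treatments.

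Hif1a (ENSMUSG00000021109.13, chromosome 12 of GRCm38, 73901375 to 73947530) encodes the oxygen-regulated subunit of HIF-1. On the ethanol vehicle its level was 61.3, 58.5, 66.1, 68.5 and 66.6 CPM in the 5 Akita mice and 53.9, 59.3, 55.2, 47.4 and 55.5 CPM in the 5 WT mice. A single Akita value lay under the highest WT value. With MitoGamide the level was 78.6, 88.6, 76.9, 72.4 and 111 CPM in Akita mice and 71.0, 60.4, 57.6, 65.5 and 63.3 CPM in WT mice, and here the groups did not overlap. On water it was 59.9, 45.4, 48.1, 67.7 and 50.2 CPM in Akita mice and 54.1, 36.7, 32.4, 35.8 and 57.8 CPM in WT mice. With MitoQ it was 63.5, 58.5, 48.7, 55.1 and 65.0 CPM in Akita mice and 44.2, 50.3, 39.6, 52.3 and 49.5 CPM in WT mice. The genotypes overlapped in both treatments of the water arm, and the WT mice on water fell into a low trio and a higher pair, the low trio being 3 of the 8 libraries dominated by a few genes.

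Over all treatments Hif1a was at 65.5 ± 15.4 CPM in Akita mice and 52.1 ± 10.3 CPM in WT mice (SD, n = 20), and the log2 fold change was 0.32 (adjusted p = 0.000212, standard error 0.065) from edgeR. On ethanol the log2 fold change was 0.26 (adjusted p = 0.0193, standard error 0.067), and on MitoGamide it was 0.46 (adjusted p = 0.0170, standard error 0.11). On water the estimate was 0.32 (adjusted p = 0.902, standard error 0.20) and with MitoQ 0.30 (adjusted p = 0.464, standard error 0.12), both without a call in edgeR, and over the alternatives the estimate for Hif1a lay between 0.17 and 0.475 on water and between 0.23 and 0.36 with MitoQ. When all 8 groups were fitted together, so that they shared 1 estimate of the spread, the ethanol contrast of Hif1a had an adjusted p of 0.392. In the order of the 8 group means, Akita mice with MitoGamide came first at 85.6 ± 15.6 CPM, and this was the only step to the next group (Akita mice on ethanol, 64.2 ± 4.14) that exceeded the larger SD of both neighbours. WT mice on water came last at 43.4 ± 11.7 CPM.

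Epas1 (ENSMUSG00000024140.10, chromosome 17, 86753700 to 86833410) encodes HIF-2α, the subunit known to drive erythropoietin. Over all treatments it was at 198 ± 37.2 CPM in Akita mice and 179 ± 30.0 CPM in WT mice (SD, n = 20), with a log2 fold change of 0.14 (adjusted p = 0.0917, standard error 0.059) in edgeR, which was not a call. It was called when the water groups or the 8 libraries above were left out (26.9% and 31.6% of all tested genes called). It was also called when any 1 of 8 libraries was left out (22% to 24.6%). These were Akita mice on water, replicates 1, 2 and 3, WT on water, 2, Akita with MitoQ, 2, WT with MitoQ, 2 and 3, and WT with MitoGamide, 5. Over the alternatives the highest estimate was 0.21. The largest contrast was on MitoGamide, with 269, 229, 223, 236 and 283 CPM in Akita mice and 170.2, 184, 177, 200.3 and 274 CPM in WT mice. A single WT value (274) lay inside the Akita range and the other WT values lay below it. The log2 fold change was 0.33 (adjusted p = 0.106, standard error 0.13) in edgeR. It became a call (0.47, adjusted p = 0.00907) without that WT library, where 15% of all tested genes were called. On ethanol it was 0.18 (adjusted p = 0.0697, standard error 0.064) in edgeR. DESeq2 called it there (17.6% of all tested genes called), as did edgeR without replicate 4 of the Akita (14.7%) or replicate 5 of the WT mice (14.2%). On water and MitoQ the log2 fold change of Epas1 was 0.040 and 0.046. Over the alternatives the estimate on water lay between -0.016 and 0.19.

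**Figure D2:**
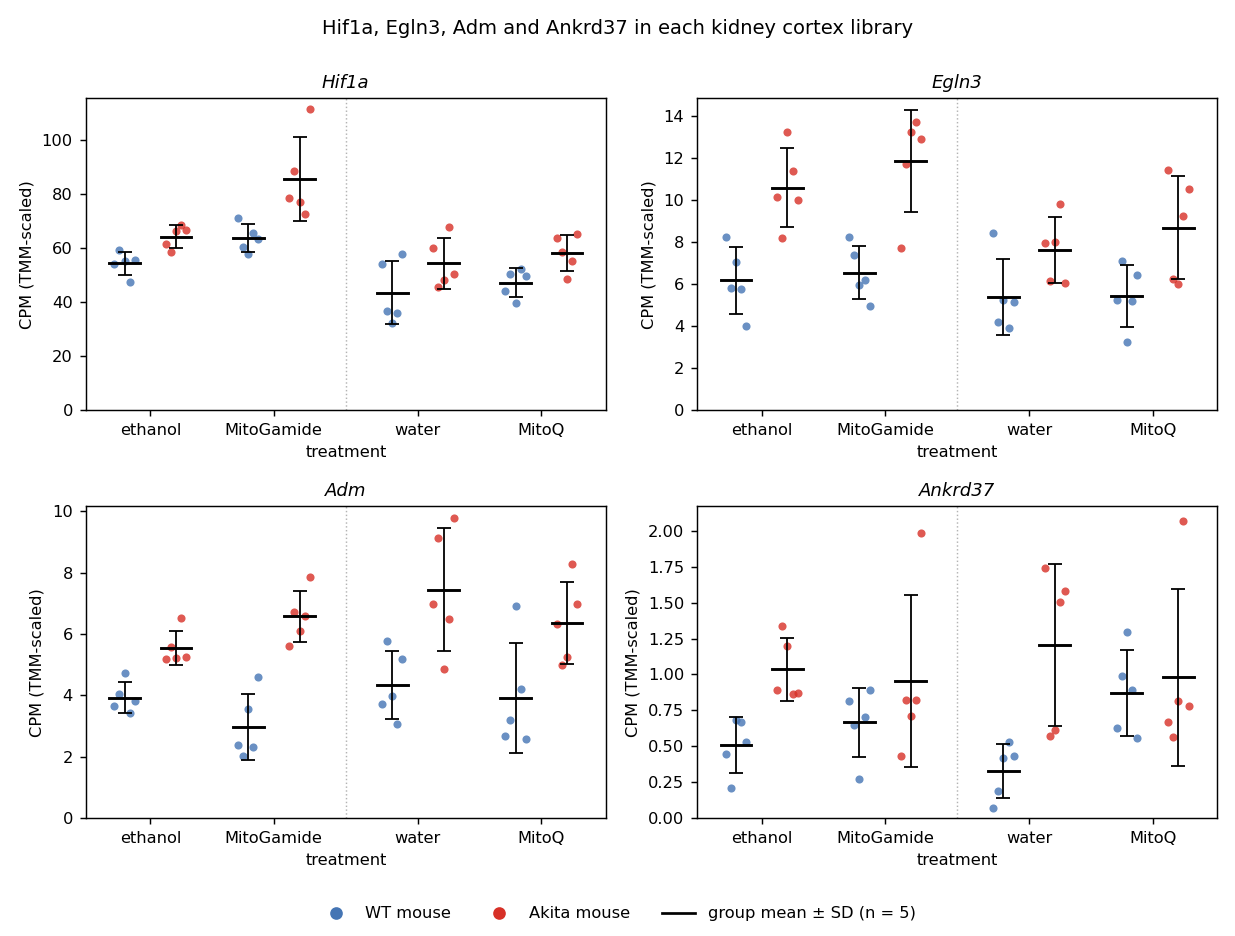
CPM of Hif1a, Egln3, Adm and Ankrd37 (y axes, starting at 0) in each of 40 libraries by treatment, with WT mice in blue, Akita mice in red and black marks for the group mean ± SD (n = 5). Akita means lie above WT means within each treatment, for Ankrd37 with MitoQ through a single mouse at 2.07 CPM, and the highest Hif1a value is 111 CPM in 1 Akita mouse with MitoGamide.

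Among the 3 prolyl hydroxylases, Egln3 was higher in Akita mice, and the estimates for Egln1 and Egln2 were below 0 without a call. Egln3 (ENSMUSG00000035105.5, chromosome 12, 54178981 to 54203860) encodes PHD3, the hydroxylase that is itself a strong HIF target. On ethanol it was at 10.2, 8.20, 13.3, 11.4 and 10.0 CPM in Akita mice and 8.26, 5.81, 7.08, 5.79 and 4.01 CPM in WT mice. The lowest Akita and the highest WT value were nearly equal on this scale, and the groups did not overlap when scaled over their own 10 libraries. With MitoGamide Egln3 was at 7.72, 11.8, 13.3, 13.7 and 12.9 CPM in Akita mice and 8.23, 7.40, 5.96, 6.19 and 4.98 CPM in WT mice, where 1 Akita mouse lay among the WT values. On water Egln3 was at 7.99, 6.16, 8.03, 9.85 and 6.07 CPM in Akita mice and 8.46, 4.20, 5.23, 3.92 and 5.17 CPM in WT mice. With MitoQ Egln3 was at 11.5, 6.26, 6.01, 9.26 and 10.5 CPM in Akita mice and 5.24, 7.08, 3.24, 5.19 and 6.46 CPM in WT mice. Both groups overlapped on water and with MitoQ, and all 4 Akita group means were above all 4 WT group means, although no step between neighbours in that order exceeded the larger of their SDs.

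Over all treatments Egln3 was at 9.70 ± 2.58 CPM in Akita mice and 5.90 ± 1.51 CPM in WT mice (SD, n = 20), and the log2 fold change was 0.70 (adjusted p = 2.52e-06, standard error 0.11) from edgeR. The log2 fold change was 0.79 (adjusted p = 0.00641, standard error 0.17) on ethanol and 0.90 (adjusted p = 0.00747, standard error 0.18) on MitoGamide in edgeR. It was 0.50 (adjusted p = 0.682, standard error 0.24) on water and 0.64 (adjusted p = 0.368, standard error 0.23) with MitoQ, both without a call.

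Egln1 (ENSMUSG00000031987.6, chromosome 8, 124908587 to 124949324) encodes PHD2, the main hydroxylase that limits HIF-1α. It was at 41.0 ± 4.92 CPM in Akita mice and 45.3 ± 7.58 CPM in WT mice (SD, n = 20), with a log2 fold change of -0.15 (adjusted p = 0.101, standard error 0.064) in edgeR. It was called lower among genes with at least 10 counts in every library (27.3% of all tested genes called) and without the 8 libraries dominated by a few genes (31.6%). The same held without replicate 3 of the WT mice with MitoQ (24.6%) and with the first principal component as a covariate (34.1%). The log2 fold changes of Egln1 went down to -0.18. Egln2 (ENSMUSG00000058709.11, chromosome 7, 27158658 to 27166802), which encodes PHD1, was at 29.1 ± 4.15 CPM in Akita mice and 31.4 ± 4.59 CPM in WT mice and had a log2 fold change of -0.11 (adjusted p = 0.204, standard error 0.061) in edgeR. Its largest contrast was on water, where it was at 27.0 ± 3.55 CPM in Akita mice and 34.3 ± 4.47 CPM in WT mice (SD, n = 5) and had a log2 fold change of -0.34 (adjusted p = 0.567, standard error 0.14) in edgeR. Vhl (ENSMUSG00000033933.13, chromosome 6, 113623959 to 113631633), the substrate receptor of the ligase that binds hydroxylated HIF, was at 10.8 ± 1.72 CPM in Akita mice and 11.6 ± 2.30 CPM in WT mice, with a log2 fold change of -0.11 (adjusted p = 0.334, standard error 0.074) in edgeR. With the first principal component as a covariate, Egln2 and Vhl were called lower too, in a fit that called 34.1% of all tested genes.

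Of the 4 targets that are not regulators of the pathway, Adm and Ankrd37 were higher in Akita mice. Adm (ENSMUSG00000030790.15, chromosome 7, 110627661 to 110629820) encodes adrenomedullin, a vasodilator peptide. On ethanol it was at 5.18, 5.57, 5.23, 6.52 and 5.24 CPM in Akita mice and 3.65, 4.05, 4.72, 3.41 and 3.82 CPM in WT mice. With MitoGamide Adm was at 5.63, 6.72, 6.12, 6.59 and 7.86 CPM in Akita mice and 2.38, 2.03, 3.56, 2.32 and 4.6 CPM in WT mice. In both treatments every Akita value was above every WT value. On water Adm was at 6.97, 9.13, 4.84, 6.49 and 9.77 CPM in Akita mice and 3.73, 5.77, 3.98, 3.08 and 5.17 CPM in WT mice. With MitoQ Adm was at 6.32, 4.99, 5.24, 8.28 and 6.97 CPM in Akita mice and 2.66, 3.19, 6.92, 4.21 and 2.57 CPM in WT mice. On water 2 WT values reached into the Akita range, and with MitoQ a single WT value (6.92) did, which came from the library whose 20 leading genes held 75.1% of its counts.

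Over all treatments Adm was at 6.48 ± 1.39 CPM in Akita mice and 3.79 ± 1.22 CPM in WT mice (SD, n = 20), and the log2 fold change was 0.78 (adjusted p = 9.25e-07, standard error 0.11) in edgeR, the smallest adjusted p among the members. The log2 fold change was 0.51 (adjusted p = 0.0102, standard error 0.12) on ethanol, 1.14 (adjusted p = 0.00628, standard error 0.22) on MitoGamide, 0.75 (adjusted p = 0.311, standard error 0.24) on water and 0.79 (adjusted p = 0.261, standard error 0.25) with MitoQ. Without the WT library just named, Adm was also called with MitoQ, where 1.47% of all tested genes were called. With all 8 groups in 1 fit, the ethanol contrast of Adm had an adjusted p of 0.23. In the order of group means, the 4 Akita groups (means of 5.55 to 7.44 CPM) lay above the 4 WT groups, and the step between both sets, from Akita mice on ethanol to WT mice on water, exceeded the larger SD.

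Ankrd37 (ENSMUSG00000050914.16, chromosome 8, 45996902 to 46005707) encodes an ankyrin repeat protein and is known as a direct HIF target. It was counted between 1 and 36 times per library, so that counting error is large. Its span overlaps Lrp2bp on the other strand, as those of Hif1a and Adm overlap the antisense genes Gm15283 and Gm28863. The strand setting of the counting is not given in the sources used here. Whether reads of the overlapping genes entered these counts was not tested. Hif1a also overlaps the protein-coding gene Gm49321 on its own strand over 9878 bases. On ethanol Ankrd37 was at 0.894, 1.34, 1.20, 0.866 and 0.874 CPM in Akita mice and 0.448, 0.208, 0.680, 0.670 and 0.532 CPM in WT mice. On water Ankrd37 was at 1.74, 0.570, 0.613, 1.505 and 1.58 CPM in Akita mice and 0.0717, 0.188, 0.416, 0.530 and 0.431 CPM in WT mice. In neither of the vehicles did the groups overlap. With MitoGamide Ankrd37 was at 0.433, 0.820, 0.710, 0.823 and 1.99 CPM in Akita mice and 0.816, 0.647, 0.274, 0.703 and 0.892 CPM in WT mice. With MitoQ Ankrd37 was at 0.672, 0.562, 0.814, 2.07 and 0.781 CPM in Akita mice and 0.626, 0.992, 1.30, 0.892 and 0.555 CPM in WT mice. With both compounds the groups overlapped, and 1 Akita mouse in each stood well above the other 4.

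Over all treatments Ankrd37 was at 1.04 ± 0.493 CPM in Akita mice and 0.593 ± 0.298 CPM in WT mice (SD, n = 20), and the log2 fold change was 0.87 (adjusted p = 0.00319, standard error 0.22) in edgeR. Without the water groups it was 0.57 (adjusted p = 0.0532), no longer a call. The log2 fold change was 1.02 (adjusted p = 0.0302, standard error 0.29) on ethanol, and the call was lost without replicate 2 (adjusted p = 0.0812) or replicate 3 (0.0579) of the Akita group and without replicate 1 (0.0661) or replicate 5 (0.0520) of the WT group, and with all 8 groups in 1 fit (0.175) or with the replicate number as a block. It was 1.89 (adjusted p = 0.185, standard error 0.51) on water, the largest estimate of any member, 0.49 (adjusted p = 0.437, standard error 0.41) on MitoGamide and 0.25 (adjusted p = 0.960, standard error 0.40) with MitoQ, none of them a call in edgeR. Without replicate 5 of its Akita group the MitoGamide estimate of Ankrd37 was 0.091, without replicate 3 of its WT group 0.30, and over all single omissions it reached 0.66. Without replicate 4 of the Akita group the MitoQ estimate was -0.20, and over the other single omissions it lay between 0.11 and 0.39. On water, DESeq2 and the fit of all 8 groups called it.

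Ndrg1 (ENSMUSG00000005125.13, chromosome 15, 66929318 to 66969640), a differentiation and stress gene induced by hypoxia in many cells, held 0.185% of all counts. It was at 1748 ± 638 CPM in Akita mice and 1822 ± 403 CPM in WT mice (SD, n = 20), with a log2 fold change of -0.047 (adjusted p = 0.847, standard error 0.13) in edgeR. On ethanol it was at 1354, 1532, 2311, 1777 and 1435 CPM in Akita mice and 2578, 1986, 2714, 2348 and 1877 CPM in WT mice, with a log2 fold change of -0.43 (adjusted p = 0.0650, standard error 0.15) in edgeR. DESeq2 called this difference (17.6% of all tested genes called), as did edgeR without the filter on low counts (6.95%) and with the replicate number as a block (14.5%). It was also called without replicate 3 of the Akita (14.1%) or replicate 5 of the WT mice (14.2%). On MitoGamide, water and MitoQ the log2 fold change was 0.14, -0.011 and 0.16. A single Akita mouse with MitoGamide (replicate 5) reached 3783 CPM, and the other 4 of its group lay between 1067 and 1959 CPM. Without that mouse the MitoGamide estimate of Ndrg1 turned to -0.26, and over the alternatives it reached 0.29. On water the estimate lay between -0.29 and 0.17 over the alternatives, with MitoQ between 0.073 and 0.22, and over all treatments between -0.13 and 0.11.

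Epo (ENSMUSG00000029711.13, chromosome 5, 137483020 to 137533242), which encodes erythropoietin, was close to the limit of detection. Its count was between 0 and 16 per library, with a mean of 3.88, and it was 0 in 4 of 40 libraries. The 20 Akita libraries held 77 counts of 325085831 in all and the 20 WT libraries 78 of 302527687. A two-sided permutation test of log2(CPM + 0.5) within treatments gave a mean difference of -0.0089 (Akita minus WT, 100000 permutations, p = 0.938). Among the 11 comparisons for Epo the smallest p was 0.159 (two-sided exact permutation test, ethanol against water in WT mice, 30 against 7 counts, adjusted p = 0.593 over 13 tests). These counts limit what can be seen for Epo. Its annotated span also holds the genes Gnb2, Pop7 and Gigyf1.

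**Figure D3:**
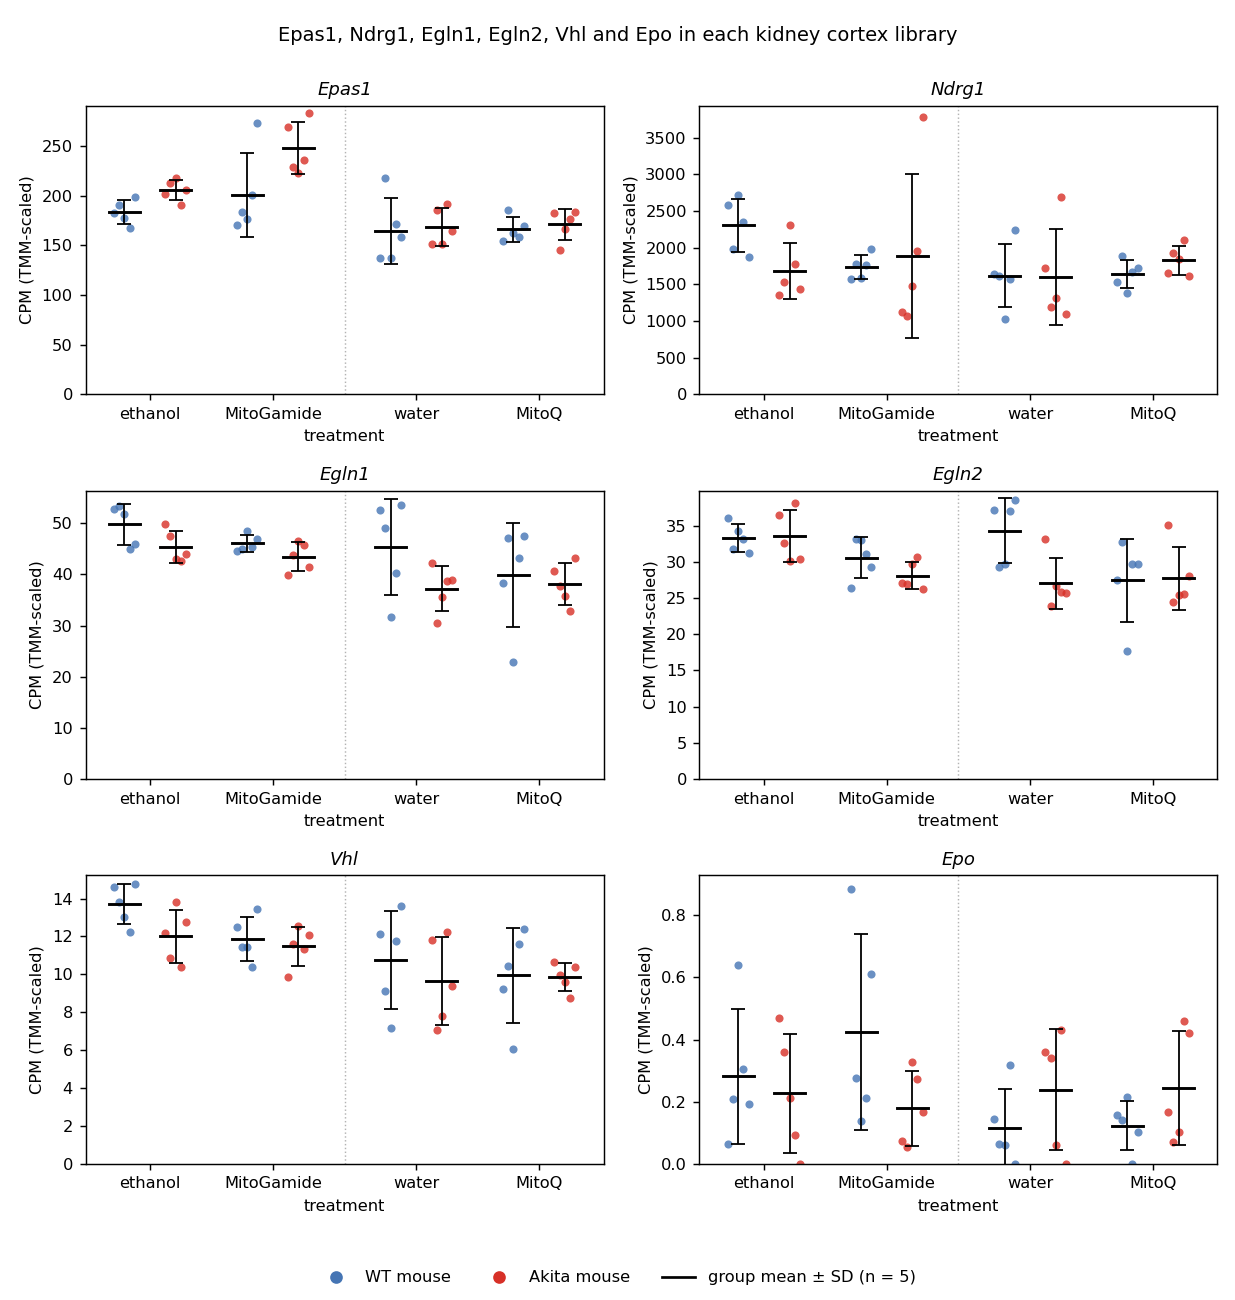
CPM of Epas1, Ndrg1, Egln1, Egln2, Vhl and Epo (y axes, starting at 0) in each of 40 libraries by treatment, with WT mice in blue, Akita mice in red and black marks for the group mean ± SD (n = 5, with bars cut at 0). The genotypes overlap for each gene within every treatment, and Ndrg1 reaches 3783 CPM in 1 Akita mouse with MitoGamide.

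HIF binds short DNA elements with the core ACGTG or GCGTG. For the members, the 250 bases upstream of a RefSeq transcription start (build GRCm38.p6) were searched for both 5-base motifs on both strands. Windows were at hand for 8 of the 10 members (9 windows, 2 of them for Egln2), and those of Epas1 and Ndrg1 were not analysed here. The windows of the 4 called genes are shown 5′ to 3′ on the strand of the gene, with matches in capitals, CACGTG being a match on each strand and CACGCGTG holding 2 overlapping matches. The starts used for Hif1a and Ankrd37 lie inside the annotated gene spans. Bases from the first annotated untranslated base onwards are left out, so that the Ankrd37 sequence ends before the RefSeq start and lacks the fourth match, 6 bases upstream of it.
Hif1a, chr12:73907617-73907866, plus strand: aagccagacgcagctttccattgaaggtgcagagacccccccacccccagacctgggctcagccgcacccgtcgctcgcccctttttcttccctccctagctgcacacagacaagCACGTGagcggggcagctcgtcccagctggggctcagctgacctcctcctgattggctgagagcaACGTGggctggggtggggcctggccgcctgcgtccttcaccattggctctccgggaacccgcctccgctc
Egln3, chr12:54203875-54204124, minus strand: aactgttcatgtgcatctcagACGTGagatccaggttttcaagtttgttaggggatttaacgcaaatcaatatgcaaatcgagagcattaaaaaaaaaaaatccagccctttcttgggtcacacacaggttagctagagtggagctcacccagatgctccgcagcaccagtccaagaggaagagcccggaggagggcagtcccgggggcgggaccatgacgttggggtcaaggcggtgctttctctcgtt
Adm, chr7:110627407-110627656, plus strand: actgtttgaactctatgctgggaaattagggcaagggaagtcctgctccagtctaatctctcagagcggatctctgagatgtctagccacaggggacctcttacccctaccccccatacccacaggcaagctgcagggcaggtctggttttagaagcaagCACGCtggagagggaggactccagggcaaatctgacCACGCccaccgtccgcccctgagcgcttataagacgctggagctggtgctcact
Ankrd37, chr8:45999868-46000100, minus strand: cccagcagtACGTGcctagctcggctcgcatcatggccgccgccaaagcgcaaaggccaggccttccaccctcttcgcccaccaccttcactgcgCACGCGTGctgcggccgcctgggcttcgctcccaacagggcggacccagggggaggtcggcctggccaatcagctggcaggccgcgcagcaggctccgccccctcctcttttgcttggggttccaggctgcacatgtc
The Hif1a window held 3 matches, first bases at 135, 134 and 70 bases before the start, the Egln3 window 1 (229), the Adm window 2 (90 and 54) and the Ankrd37 window 4 (241, 155, 152 and 6). Of the members without a call, Egln1 held 2, Egln2 4 and 1 in its windows, Epo 2 and Vhl 0. Either motif stands in 38.6% of 32851 RefSeq promoters of this length, 16.7% hold at least 2 matches and 6.58% at least 3. Both motifs hold a CpG, and the GC content of the 9 windows was 48% to 86% (66.4% for Hif1a, 50.8% for Egln3, 56.8% for Adm and 67.6% for Ankrd37), against a median of 52.4% over all promoters. A match describes letters in the window, not binding.

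Treatment with MitoGamide in Akita mice was the second question. In edgeR, 0 of 9 members were called against the ethanol vehicle, where 1.26% of 17051 tested genes were called, although Hif1a, Epas1 and Egln2 had an unadjusted p under 0.05, as did 20.9% of all tested genes, and DESeq2 called Hif1a and Epas1 among 5.99% of all tested genes. Hif1a was between 72.4 and 111 CPM with MitoGamide and between 58.5 and 68.5 CPM with vehicle, and its log2 fold change was 0.42 (adjusted p = 0.0628, standard error 0.10). Epas1 was between 223 and 283 CPM against 191 to 218 CPM, a log2 fold change of 0.27 (adjusted p = 0.0927, standard error 0.079). The groups did not overlap for these 2 genes, as for 7.55% of all tested genes. Hif1a was called when replicate 5 of the MitoGamide group, which had the highest value, was left out, a fit that called 4.67% of all tested genes. Egln2 was at 28.1 ± 1.91 CPM with MitoGamide and 33.6 ± 3.59 CPM with vehicle (SD, n = 5), and the log2 fold change was -0.25 (adjusted p = 0.145, standard error 0.088). For Egln3, Adm and Ankrd37, the targets that were higher in Akita mice, the log2 fold change with MitoGamide was 0.18, 0.25 and -0.14, with standard errors of 0.16, 0.12 and 0.34. With 1 library left out, Egln3 lay between 0.094 (without replicate 2 of the vehicle group) and 0.297 (without replicate 1 of the MitoGamide group). Ankrd37 lay at -0.53 without replicate 5 of the MitoGamide group and turned to 0.036 without its replicate 1.

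Of 11 lists of cell type markers, the summed levels of 2 did not overlap between Akita mice with MitoGamide and with vehicle. The sum of 6 markers of interstitial fibroblasts and pericytes was between 168 and 237 CPM with MitoGamide and between 127 and 162 CPM with vehicle, and that of 6 endothelial markers between 238 and 365 against 196 and 223 CPM. The sums of the other 9 lists overlapped, among them the proximal tubule (11160 to 13370 against 11240 to 14910 CPM). Each fibroblast, pericyte and endothelial marker had a mean of at least 1 count per library over the 40 libraries. The part of these cells in the values of Hif1a and Epas1 was not tested. In bulk tissue, a change in the number of cells of a type and a change of the transcript per cell cannot be told apart.

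In WT mice, MitoGamide gave 0 called members and 0 called genes of 17395 (0%) in edgeR, with 1841 genes (10.6%) at an unadjusted p under 0.05 and 73 genes (0.42%) called by DESeq2. Ndrg1 was at 1734 ± 165 CPM with MitoGamide and 2301 ± 364 CPM with vehicle (SD, n = 5), with a log2 fold change of -0.41 (adjusted p = 0.310, standard error 0.11), and was the member that DESeq2 called. Hif1a had 0.22 (adjusted p = 0.331, standard error 0.073) and Vhl -0.21 (adjusted p = 0.444, standard error 0.090), both with an unadjusted p under 0.05 in edgeR. Whether the MitoGamide effect differed by genotype was tested as an interaction, with 0 of 17256 genes called (0%), 1435 (8.32%) at an unadjusted p under 0.05 and 0 called by DESeq2. Among members the smallest p was that of Adm, whose log2 fold change with MitoGamide was 0.25 in Akita and -0.38 in WT mice, an interaction of 0.62 (standard error 0.24, unadjusted p = 0.0187, adjusted p = 0.585 in edgeR). Over the alternatives the Adm estimate in WT mice lay between -0.61 and -0.28, and the interaction between 0.54 and 0.86.

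**Figure D4:**
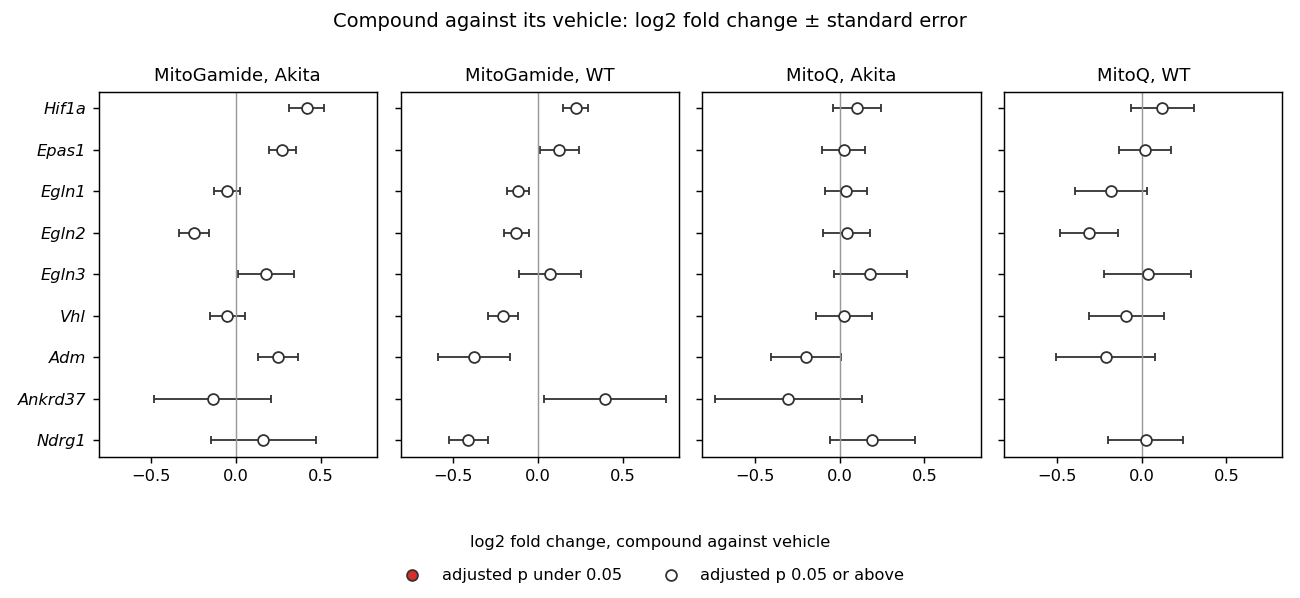
Log2 fold change of MitoGamide against the ethanol vehicle and of MitoQ against water (x axis) with its standard error (bars), for 9 genes in Akita and WT mice, where open points mark an adjusted p of 0.05 or above from edgeR. No point is filled, Hif1a with MitoGamide in Akita mice lies at 0.42, and Ankrd37 is missing for MitoQ in WT mice because it had too few counts.

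MitoQ gave no called member in either genotype. In Akita mice, 0 of 18496 genes were called against water (0%) in edgeR, 363 (1.96%) had an unadjusted p under 0.05 and DESeq2 called 0. The member log2 fold changes in Akita mice ranged from -0.30 (Ankrd37) to 0.19 (Ndrg1), none with an unadjusted p under 0.05. Over the alternatives the estimate of Ankrd37 lay between -0.76 and -0.12, and that of Ndrg1 between -0.28 and 0.46. In WT mice, 0 of 17881 genes were called (0%), 575 (3.22%) had an unadjusted p under 0.05 and DESeq2 called 2. Ankrd37 was below the count filter there, and its 5 values with MitoQ (0.626, 0.992, 1.30, 0.892 and 0.555 CPM) were all above those on water (0.0717, 0.188, 0.416, 0.530 and 0.431 CPM), where 0.928% of tested genes did not overlap. A two-sided exact permutation test gave p = 0.00794, the smallest that 5 against 5 mice can give, and 0.103 after adjustment over 13 tests of sparse members. Between genotypes, the interaction of MitoQ had 0 of 18225 genes called (0%) with 207 (1.14%) at an unadjusted p under 0.05, and DESeq2 called 1. That of Ankrd37 was -1.66 (standard error 0.65, unadjusted p = 0.0189, adjusted p = 1 in edgeR). The vehicles of both compounds differ and the dose of MitoQ is not known, so that their effects are given side by side only.

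Whether the genotype effect differed among the 4 treatments was tested directly, with 0 of 17769 genes called (0%) in edgeR, 883 (4.97%) at an unadjusted p under 0.05 and 13 called by DESeq2. Among members, Ankrd37 had the smallest unadjusted p, 0.0510 (adjusted p = 0.997). On each treatment alone, 4 members were called on ethanol (16.4% of 17747 genes called, 8.18% called higher) and 3 on MitoGamide (14.3% of 16674 called, 7.71% called higher). No member was called on water (0.552% of 18304 genes called) or with MitoQ (0.557% of 18143 called), where 3 members each had an unadjusted p under 0.05 (7.56% and 9.06% of all tested genes) and DESeq2 called 1 and 0 (1.93% and 2.29%). Groups did not overlap for Egln3, Adm and Ankrd37 on ethanol (12.7% of all tested genes), Hif1a and Adm on MitoGamide (12.8%), Ankrd37 on water (2.51%) and no member with MitoQ (2.85%). The low number of calls in the water arm was a feature of all genes there, and a call in 1 arm and not in the other is not a difference between the arms.

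The vehicles themselves were also compared. In Akita mice on ethanol against Akita mice on water, 0 of 9 members were called in edgeR, where 12.7% of 17928 genes were called. DESeq2 called Epas1, Egln1, Egln2 and Egln3 (23.8% of all tested genes), which all had an unadjusted p under 0.05 in edgeR, as did 39.7% of all tested genes. Egln1 was between 42.6 and 49.8 CPM on ethanol and between 30.5 and 42.2 CPM on water, without overlap (10.6% of tested genes), and had a log2 fold change of 0.30 (adjusted p = 0.0689, standard error 0.11). Over the alternatives this estimate lay between 0.18 and 0.41. Hif1a, Epas1 and Egln3 were called without replicate 4 of the Akita mice on water, and Egln1 and Egln2 without replicate 1, where 34.5% and 36.2% of all tested genes were called. In WT mice, 0 of 18092 genes were called (0%) in edgeR, 4959 (27.4%) had an unadjusted p under 0.05 and DESeq2 called 724, with 0 members among them. There Hif1a and Ndrg1 were called without replicate 5 of the WT mice on water, where 28.6% of all tested genes were called. Over all 40 libraries the levels of Hif1a, Vhl and Egln1 had correlations of -0.79, -0.79 and -0.74 with the first principal component those of Epas1, Egln3, Egln2 and Ndrg1 had -0.58, -0.56, -0.51 and -0.41, and those of Adm and Ankrd37 had 0.093 and 0.005. These are descriptions over libraries that share groups and depth. The part of this component in the vehicle contrasts was not tested.

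The other genes of the pathway were taken from 3 lists, of which 75 of 76 genes were found by symbol and 74 tested over all treatments. In Akita mice 22 were higher and 5 lower than in WT mice. Of 20 genes for glycolysis and glucose handling, 9 were higher and 0 lower, with a median log2 fold change of 0.20, against -0.022 for all tested genes. Of 38 other targets, 10 were higher and 3 lower (median 0.054), and of 16 regulators 3 were higher and 2 lower (median -0.050). The share of lists called, 9 of 20, 13 of 38 and 5 of 16, stands beside 22.8% of all tested genes.

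Pdk1, a mitochondrial kinase that inhibits pyruvate dehydrogenase, had a log2 fold change of 0.75 (adjusted p = 5.14e-06, standard error 0.12) in edgeR, with means of 38.6 CPM in Akita mice and 22.7 CPM in WT mice (n = 20). Eno1, a glycolytic enolase, had 0.62 (adjusted p = 3.37e-06, standard error 0.095), and Gys1, the glycogen synthase of non-hepatic tissues, had 0.45 (adjusted p = 7.22e-07, standard error 0.064). These 3 had the smallest p in the list of genes for glycolysis and glucose handling. Slc2a1, the glucose transporter GLUT1, had 0.087 (adjusted p = 0.535, standard error 0.088) in edgeR over all treatments and was called on MitoGamide alone, with a log2 fold change of 0.44. Ldha, a lactate dehydrogenase subunit that is a classical HIF-1 target, was below 0 at -0.15 (adjusted p = 0.279, standard error 0.095), and was named after its value was seen.

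Among other targets, Mif, a cytokine, had a log2 fold change of 0.81 (adjusted p = 5.38e-08, standard error 0.10) and Bnip3, a mitophagy receptor, 0.45 (adjusted p = 0.0316, standard error 0.16) in edgeR. Genes that fell were P4ha1, a subunit of collagen prolyl hydroxylase, by 0.60 on the log2 scale (adjusted p = 1.58e-09), Plod2, a collagen lysyl hydroxylase, by 0.77 (adjusted p = 1.53e-06), and Apln, the peptide apelin, by 0.42 (adjusted p = 0.0364) in edgeR. Vegfa, the angiogenic growth factor, had -0.19 (adjusted p = 0.274, standard error 0.12) and Car9, a carbonic anhydrase of hypoxic cells, -0.28 (adjusted p = 0.331, standard error 0.19), neither of them a call.

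Among regulators, Arnt2, a relative of the HIF partner ARNT, had a log2 fold change of 0.53 (adjusted p = 6.2e-10, standard error 0.054) in edgeR, and Hif3a, the third HIF alpha subunit, had 0.60 (adjusted p = 0.0104, standard error 0.18). Arnt itself had 0.0088 (adjusted p = 0.924, standard error 0.044), and Hif1an, the asparaginyl hydroxylase FIH, had -0.016 (adjusted p = 0.900, standard error 0.060). Os9, an endoplasmic reticulum lectin, fell by 0.24 (adjusted p = 0.000179) and Usp20, a deubiquitinase reported to act on HIF-1α, by 0.28 (adjusted p = 0.00187) on the log2 scale in edgeR.

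**Figure D5:**
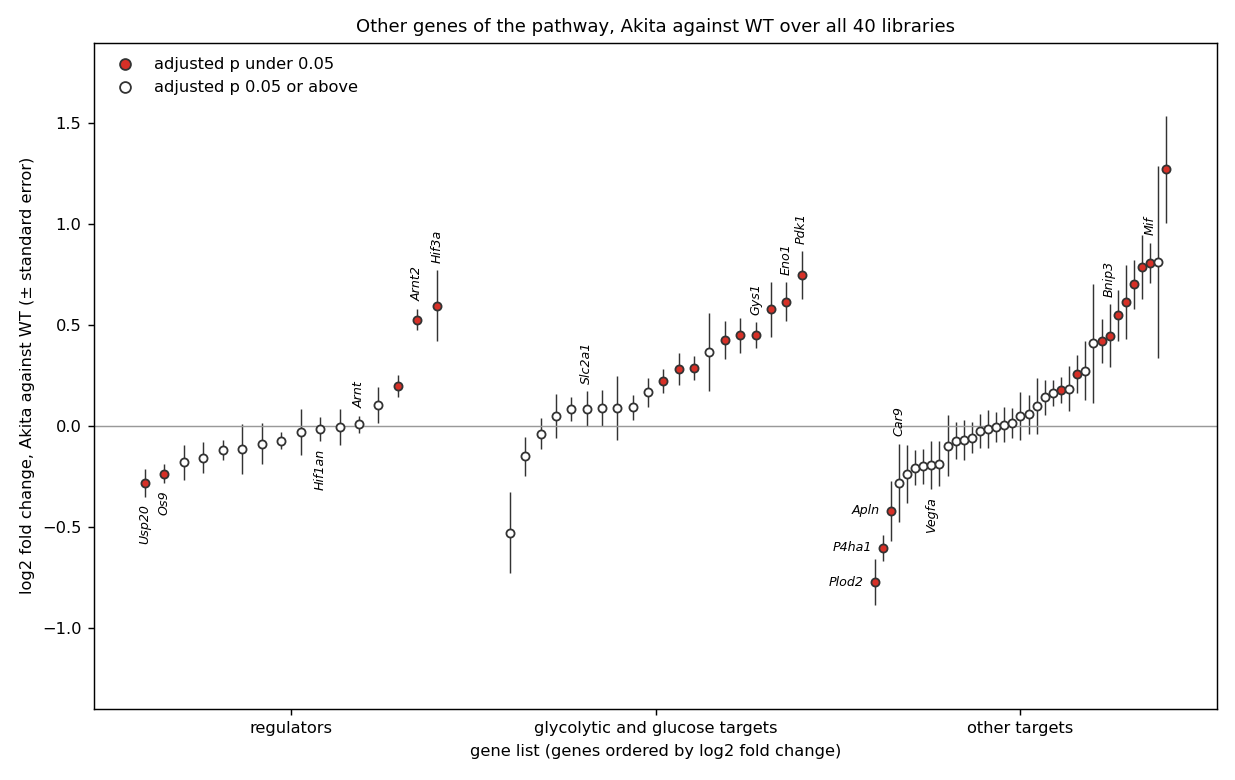
Log2 fold change of Akita against WT mice over all 40 libraries (y axis) with its standard error (bars) for the 74 tested genes of 3 pathway lists (x axis, ordered within each list), with filled points for an adjusted p under 0.05 from edgeR. In the list of glycolytic and glucose targets 9 of 20 points are filled, all above 0. In the list of other targets 10 filled points lie above and 3 below 0.

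By treatment, 14 of 74 pathway genes were higher and 6 lower in Akita mice on ethanol, and 22 higher and 3 lower on MitoGamide. Of the 20 genes for glycolysis and glucose handling, 8 and 12 were among the higher ones. Of all tested genes, 8.18% were higher and 8.22% lower on ethanol and 7.71% higher and 6.6% lower on MitoGamide. On ethanol the smallest p belonged to Pdk1 (log2 fold change 0.84) and Mif (0.75) among the higher and to Plod2 (-1.06) and P4ha1 (-0.87) among the lower genes. On MitoGamide they belonged to Mif (1.01) and Eno1 (0.92), and to P4ha1 (-0.64) and Vldlr (-0.37), a lipoprotein receptor. On water and with MitoQ 0 were called (0.552% and 0.557% of all tested genes). MitoGamide and MitoQ against their vehicles gave 0 calls among these genes in either genotype (1.26% of all tested genes for MitoGamide in Akita mice and 0% in the others), and in Akita mice with MitoGamide 58 of 74 estimates were above 0, with a median of 0.12 against -0.0021 for all tested genes. The vehicle contrast in Akita mice gave 1 call of 73 (12.7% of all tested genes), Vegfa, which was lower on ethanol at a log2 fold change of -0.79 (adjusted p = 0.0424, standard error 0.22) in edgeR. This call was lost with the replicate number as a block, where 0 of 17928 genes were called, and with 1 library left out the contrast had between 1 and 6496 called genes.

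Some markers of kidney cell types were called by genotype, beside 11% of all tested genes called higher and 11.8% called lower. Over all treatments, 3 of 6 collecting duct markers, 3 of 6 markers of fibroblasts and pericytes, 2 of 4 podocyte markers and 1 of 3 distal convoluted tubule markers were higher in Akita mice and 0 lower. Of 6 endothelial markers 2 were higher and 1 lower. Of 8 proximal tubule markers 3 were lower, of 4 thick ascending limb markers 1 was lower and of 3 tested leukocyte markers 2 were lower, with 0 higher in each. In sums per library, collecting duct markers were between 182 and 292 CPM in Akita mice and between 131 and 227 CPM in WT mice, proximal tubule markers between 9376 and 14910 against 9597 and 18080 CPM, fibroblast markers between 91.9 and 237 against 89.5 and 229 CPM, podocyte markers between 203 and 409 against 168 and 326 CPM, and leukocyte markers between 13.5 and 22.7 against 16.8 and 38.6 CPM. On MitoGamide alone, where Hif1a and Adm did not overlap, the sums did not overlap either for proximal tubule markers (11160 to 13370 CPM in Akita mice and 15330 to 17110 CPM in WT mice) and collecting duct markers (185 to 292 against 131 to 173 CPM). On ethanol, where Adm, Ankrd37 and, when scaled within that contrast, Egln3 did not overlap, the leukocyte sums did not (13.5 to 17.3 against 21.1 to 32.2 CPM), nor on water, where Ankrd37 did not (14.65 to 16.6 against 17.35 to 21.99 CPM). With MitoQ, where every member overlapped, the collecting duct sums did not (182 to 233 against 142.5 to 176 CPM). Each marker of these lists had a mean of at least 1 count per library. Their part in the genotype differences of the HIF genes was not tested.

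Over the 40 libraries, the log2 levels of the members varied together in part. The highest correlations were between Egln1 and Vhl (Pearson r = 0.83, and 0.77 after removal of the group means), Egln1 and Egln2 (0.77 and 0.72) and Hif1a and Egln3 (0.74 and 0.51). Within groups Hif1a and Vhl had 0.685 (0.48 over all libraries). Of the other pairs among the 4 called genes, Adm and Ankrd37 had 0.43 over all libraries and 0.28 within groups, and the pairs of Hif1a or Egln3 with Adm or Ankrd37 had 0.228 to 0.332 over all libraries and -0.277 to 0.09 within groups. Among all tested genes, those closest to Hif1a were Nampt (r = 0.94), ccdc198 (0.92) and Usp25 (0.92), and those closest to Egln3 were Cdhr2 (0.88), Gstm1 (0.85) and Upb1 (0.85). Closest to Adm were Fam20a and Sipa1l2 (both 0.83) and Map3k9 (0.82), and closest to Ankrd37 Flacc1 (0.69), Ceacam1 (0.68) and Rb1 (0.68). Epas1 was closest to Lrp1 (0.89), Igfbp3 (0.86) and Bgn (0.85), Egln1 to Smpd1 (0.93), Puf60 (0.92) and Tmem254c (0.92), and Egln2 to Spr (0.89), Aamp (0.89) and Retreg2 (0.88). Vhl was closest to 2900097C17Rik (0.90), Sar1a (0.89) and Slc25a15 (0.88), and Ndrg1 to Slc16a1 (0.85), Slc25a30 (0.80) and Clpx (0.79). These are descriptions over libraries that share groups, depth and the first principal component. With the share of counts held by the 20 most abundant genes, Egln1, Vhl and Egln2 had correlations of -0.83, -0.78 and -0.70. Hif1a, Ndrg1, Egln3 and Epas1 had -0.43, -0.40, -0.34 and -0.15, and Adm and Ankrd37 had 0.39 and 0.23. The part of this share in the correlations between members was not tested.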

How the data were processed

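RNA of the renal cortex was depleted of rRNA and sequenced single-end for 100 cycles from a directional library. Per the submitters' notes and the study's methods, the authors trimmed reads with Skewer 0.2.2 (quality under 20), quantified them with kallisto 0.46.1 against GENCODE mouse release 25 (GRCm38) and deposited estimated counts summed per gene in R 4.0.2. The deposited estimated counts are whole numbers. They share reads between similar transcripts, so that values of overlapping genes are less certain. Of 55401 gene identifiers, 99.5% matched the annotation used here for positions. Totals of 9106654 to 24321424 limit the precision for Ankrd37 and Epo.

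Counts were tested with edgeR 4.0.16 (R 4.3.3, limma 3.58.1), using TMM scaling, a minimum mean of 10 counts in the libraries compared, the quasi-likelihood test and Benjamini-Hochberg adjustment over all genes, with a call at an adjusted p under 0.05. Each contrast was fitted on its own 2 groups, and the genotype contrast over 4 treatments on all 40 libraries with treatment as a term. Standard errors are the log2 fold change over the square root of F. The scripts were tested on simulated data. Members under the filter were tested by two-sided permutation of log2(CPM + 0.5), adjusted over 13 tests. DESeq2 1.42.0, other filters, a fit of all 8 groups, a replicate block and omission of libraries were alternatives, as were a principal component covariate and omission of the 8 libraries dominated by few genes, both chosen after seeing the data.

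The members and lists were chosen with earlier results of these data known. Named were all 10 members in each contrast. Of the lists, Arnt, Hif1an, Hif3a, Vegfa, Slc2a1, Pdk1, Car9 and Bnip3 were named always, with up to 5 called genes of smallest p per direction over 4 treatments and up to 2 in other contrasts. For each member the 3 genes with the highest correlation of log2 CPM were named.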

Additional observations from a re-analysis of the deposited data

Results flagged for a closer look

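In 3 of 80 combinations of gene and group, 1 mouse stood apart from the other 4 by more than the critical value of Dixon's ratio (0.71), where about 4 would do so by chance. Egln3 was at 8.46 CPM in replicate 1 of the WT mice on water and between 3.92 and 5.23 CPM in the others. Ankrd37 was at 1.99 CPM in replicate 5 of the Akita mice with MitoGamide, against 0.433 to 0.823 CPM, the same animal that had the highest Hif1a, Epas1, Adm and Ndrg1 values of its group. Ankrd37 was also at 2.07 CPM in replicate 4 of the Akita mice with MitoQ, against 0.562 to 0.814 CPM.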

How the results depend on the processing

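In the contrasts where a member was called, its estimate kept its direction under the alternatives run, and 309 alternative values for called members kept their call while 9 lost it. The number of called members over 4 treatments was 4, and 7 with the first principal component as a covariate, which added Egln1, Egln2 and Vhl as lower, while the share of all tested genes called went from 22.8% to 34.1%. It was 6 without the libraries dominated by a few genes, which added Epas1 as higher and Egln1 as lower (31.6% of all tested genes). On ethanol it was 4, and 6 with DESeq2, which added Epas1 and Ndrg1 (17.6% of all tested genes). It was 1 there (Egln3) with all 8 groups in 1 fit (4.75% of all tested genes), where Hif1a had an adjusted p of 0.392, Adm 0.23 and Ankrd37 0.175. On water it was 0, and 1 (Ankrd37) with DESeq2 (1.93%) or with all 8 groups in 1 fit (3.08%). With MitoQ the genotype contrast went from 0 to 1 (Adm) without the libraries dominated by a few genes (1.43%). DESeq2 also called 2 members for MitoGamide in Akita mice, 1 for MitoGamide in WT mice and 4 for the vehicles in Akita mice, where edgeR called 0. In each case the cause was not tested. With 1 library left out, the count was 4 to 6 over 4 treatments (21.3% to 24.6% of all tested genes), 3 to 5 on ethanol (12.2% to 15.8%), 3 to 4 on MitoGamide (7.44% to 16.9%), 0 to 1 with MitoQ (0.193% to 1.47%), 0 to 1 for MitoGamide in Akita mice (0% to 4.67%), 0 to 3 for the vehicles in Akita (0.00552% to 36.2%) and 0 to 2 in WT mice (0% to 28.6%), and 0 in the other contrasts and interactions. The log2 fold change of Ankrd37 on ethanol then lay between 0.82 and 1.16, with adjusted p from 0.0278 to 0.0812, and over 4 treatments without the water groups it was 0.57 (adjusted p = 0.0532).

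Whether replicate numbers pair the mice is not known. After removal of group means, in no contrast did all 5 same-numbered pairs correlate above 0.1. For MitoQ against water in Akita mice these correlations ranged from -0.151 to 0.646, with 3 pairs above 0.1. Such correlations cannot show whether same-numbered mice shared a litter or a processing date, which was not tested. With the replicate number as a block, 4 members were called over 4 treatments, 4 on ethanol (Ndrg1, and not Ankrd37, whose adjusted p was 0.0598) and 3 on MitoGamide, where 22.7%, 14.5% and 13.7% of all tested genes were called. The count over all genes moved with the settings too. In edgeR it was 2910 on ethanol and 844 with all 8 groups fitted. On water it was 101, against 354 (DESeq2), 547 (8 groups), 32 (block) and 313 (without the dominated libraries), and with MitoQ 101, against 415, 308, 48 and 262. For MitoGamide in Akita mice it was 214, against 1022 (DESeq2), 32 (8 groups), 0 (block) and 0 to 802 without 1 library. For the vehicles in Akita mice it was 2283, against 4264 (DESeq2), 1352 (no filter), 0 (block), 6 (without the dominated libraries) and 1 to 6496 without 1 library. For the vehicles in WT mice it was 0, against 724 (DESeq2), 1567 (8 groups), 2 (block) and 0 to 5216 without 1 library, for MitoGamide in WT mice 0 against 73 (DESeq2), and for MitoQ in WT mice 0 against 2 (DESeq2), 18 (8 groups), 1 (block) and 4 (without the dominated libraries). Without 1 library it ranged from 1248 to 2822 on MitoGamide, where 2386 were called, from 32 to 94 on water and from 35 to 270 with MitoQ. Depth limits Ankrd37 and Epo most.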
